A study of Mus musculus with 8 samples.

Results

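The genes described here are 10 mouse genes for secreted antimicrobial and acute-phase proteins: the beta-defensins Defb1, Defb3, Defb4, Defb6 and Defb14, the protease inhibitor Slpi, the serum amyloids Saa1 and Saa3, the siderophore-binding lipocalin Lcn2 and the cathelicidin Camp. They were taken by symbol from 3 deposited tables, and all 10 of 10 were found among 21882 gene symbols, with 1 transcript each. The series profiled messenger RNA from the skin of C57BL/6 embryos by sequencing. The first comparison set Cyp26b1-/- skin (2 libraries) against wild-type skin (2 libraries), both collected at embryonic day 16.5 (E16.5). The others, at E18.5, took dermis and epidermis apart, with 1 library of En1cre;Cyp26b1f/- and 1 of Cyp26b1f/+ for each tissue analysed here. The series' design text speaks of duplicates, whereas the labels used here list 1 library for each E18.5 group, so what an E18.5 column holds beyond that library is not known. Cyp26b1 encodes a cytochrome P450 enzyme that degrades retinoic acid, and En1cre deletes the floxed allele in cells with a history of Engrailed 1 expression, which include trunk dermal fibroblasts. Outside those cells the f/- mutant has 1 working Cyp26b1 allele fewer than the f/+ control, so that difference and the deletion cannot be told apart. Whether a library holds RNA of 1 embryo or of several is not given in the sources used here.

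Beta-defensins are short cationic peptides, held in shape by paired cysteines, that damage microbial membranes. In mouse epithelia Defb1 is known as a largely constitutive gene, whereas Defb4 and Defb14 are induced by cytokines, injury and microbes. Slpi blocks neutrophil elastase and related proteases, Lcn2 starves bacteria of iron, the serum amyloids are acute-phase lipoproteins, and Camp is the precursor of the cathelicidin peptide CRAMP, made by neutrophils, keratinocytes and dermal adipocytes. Retinoic acid is known to alter keratinocyte differentiation, and in adult skin many of these genes are products of differentiating or stressed keratinocytes.

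Defb14, Defb4, Defb6 and Defb3 lie in that order on the plus strand of chromosome 8 (mm9), with Defb14 at 19194328 to 19195309 and Defb4 at 19198704 to 19201547, only 3.4 kb apart. Defb1 lies in the same chromosome's other defensin region, at 22887027 to 22905657. Saa3, Saa1 and Saa2 are neighbours on chromosome 7, with Saa1 at 53995869 to 53998350 on the minus strand. Slpi (164179806 to 164182243) and Lcn2 (32240157 to 32243259) lie on chromosome 2, and Camp (109749891 to 109751970) on chromosome 9. The coding sequences of the 3 defensins with the highest values are shown because 1 of them moved against the other two at E16.5. They are from the GENCODE transcripts of the mm9 build, 5′ to 3′, with in-frame cysteine codons in capitals.
Defb1: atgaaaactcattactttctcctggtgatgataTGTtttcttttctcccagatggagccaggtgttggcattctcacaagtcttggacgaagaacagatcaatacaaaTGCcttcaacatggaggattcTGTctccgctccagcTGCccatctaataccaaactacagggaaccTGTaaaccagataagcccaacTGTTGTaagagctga
Defb4: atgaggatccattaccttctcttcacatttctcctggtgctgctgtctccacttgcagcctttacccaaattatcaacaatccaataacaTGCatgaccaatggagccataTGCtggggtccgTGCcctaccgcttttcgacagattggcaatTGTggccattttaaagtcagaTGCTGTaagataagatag
Defb14: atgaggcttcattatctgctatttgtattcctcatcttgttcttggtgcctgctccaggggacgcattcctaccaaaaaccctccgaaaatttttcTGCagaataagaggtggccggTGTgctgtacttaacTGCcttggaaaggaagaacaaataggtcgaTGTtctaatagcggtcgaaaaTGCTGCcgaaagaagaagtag
Defb4 and Defb14 each have 6 cysteine codons, and Defb1 has 7. The coding sequences of Defb4 and Defb14 were 54.7% identical in a global alignment and their transcripts shared no run longer than 8 bases. Defb4 and Defb3 were 76.0% identical with a shared run of 33 bases, and Defb4 and Defb6 were 78.6% identical with one of 26 bases.

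In E16.5 skin the defensins did not move together. Levels are in FPKM, which counts sequenced fragments relative to transcript length and library size. Each E16.5 value is the authors' pooled value of 2 libraries, so a value per library and a spread between libraries cannot be given. Folds are the log2 folds of the authors' deposited table minus 0.474, the median over its tested transcripts, with the 95% interval implied by the deposited statistic. Rose and fell mean an adjusted p under 0.05 for that centred statistic, with the Benjamini-Hochberg adjustment over all tested transcripts. Tested transcripts without a finite fold were not centred and kept the authors' own q and call. Of the 10 genes, 2 rose and 4 fell, where 8.30% of 16303 tested genes rose and 10% (1637 genes) fell. By the authors' own q, 2 were higher and 3 lower, where 54.6% of all tested genes were higher and 3.46% lower.

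Defb1 had 80.2 FPKM in Cyp26b1-/- skin and 31.0 FPKM in wild-type skin. It rose, with a centred log2 fold of 0.90 (95% interval 0.58 to 1.21, adjusted p = 5.61e-07, recomputed from the authors' deposited statistic), and 276 of 14154 genes with at least 1 FPKM had a higher fold on the log2(FPKM + 1) scale. It had the highest FPKM of the 10 genes in both groups. Defb4 had 1.39 FPKM in Cyp26b1-/- skin and 7.20 FPKM in wild-type skin, and it fell, with a centred log2 fold of -2.85 (95% interval -3.86 to -1.84, adjusted p = 9.11e-07, recomputed from the authors' deposited statistic). Its neighbour Defb14 had 5.40 FPKM in Cyp26b1-/- skin and 18.9 FPKM in wild-type skin, with a centred log2 fold of -2.28 (95% interval -3.16 to -1.40, adjusted p = 7.59e-06, recomputed from the authors' deposited statistic). The intervals of Defb4 and Defb14 overlap each other and lie wholly below 0, while that of Defb1 lies wholly above it. The other defensins of the same cluster were close to the limit of what these tables resolve. Defb6 had 0.35 FPKM in Cyp26b1-/- skin and 0.43 FPKM in wild-type skin, with a centred interval of -3.68 to 2.20. Defb3 had 0.46 FPKM in Cyp26b1-/- skin and was listed at 0 in wild-type skin, so no fold is given. The authors' deposited table had q = 0.145 for it.

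Slpi had 8.63 FPKM in Cyp26b1-/- skin and 1.31 FPKM in wild-type skin. It rose, with a centred log2 fold of 2.24 (95% interval 1.48 to 3.01, adjusted p = 2.91e-07, recomputed from the authors' deposited statistic), and 98 of 14154 genes had a higher fold on the log2(FPKM + 1) scale. Its rank among the 10 genes was second in Cyp26b1-/- skin, where it lay behind only Defb1, and seventh in wild-type skin. Most markers of lens and retina, and some mucosal and conjunctival markers, rose in the same pooled libraries. Of the lens markers 9 of 10 tested rose (10 higher and 0 lower by the authors' q), with a summed level of 2257 FPKM in Cyp26b1-/- skin and 64.7 FPKM in wild-type skin. Of these sums, Cryab was 83.6 FPKM in Cyp26b1-/- skin and 57.8 FPKM in wild-type skin. Of the retina markers 4 of 6 tested rose (5 higher and 0 lower by the authors' q), with summed levels of 24.1 and 11.3 FPKM in Cyp26b1-/- and wild-type skin. Of these sums, Mlana and Tyr were 6.33 and 5.67 FPKM in Cyp26b1-/- skin and 7.15 and 3.67 FPKM in wild-type skin. Rax had 4.82 FPKM in Cyp26b1-/- skin and 0.04 FPKM in wild-type skin. Of the mucosal and conjunctival markers 4 rose and 2 fell of 9 tested (4 higher and 0 lower by the authors' q, so both falls come from the centring), and the mucosal keratin Krt4 had 295 FPKM in Cyp26b1-/- skin and 55.0 FPKM in wild-type skin. Krt13, of the same list, had 188 FPKM in Cyp26b1-/- skin and 202 FPKM in wild-type skin, so wild-type skin also held RNA of this list. The part of eye tissue and mucosal epithelium in the rise of Slpi and Defb1 was not tested.

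Saa1 had the largest fall of the 10. It had 0.52 FPKM in Cyp26b1-/- skin and 21.4 FPKM in wild-type skin, a centred log2 fold of -5.83 (95% interval -6.90 to -4.77, adjusted p = 9.99e-25, recomputed from the authors' deposited statistic), and 47 of 14154 genes had a lower fold on the log2(FPKM + 1) scale. Saa2, the neighbouring serum amyloid gene and not among the 10, also fell, with 0.10 FPKM in Cyp26b1-/- skin and 1.56 FPKM in wild-type skin (adjusted p = 0.0243, recomputed from the authors' deposited statistic). Reads of this pair may be split between them, because their coding sequences are 95.1% identical and their transcripts share a run of 76 bases. The first 300 of 369 coding bases of Saa1 are shown for this reason, with the bases that differ from Saa2 in capitals, 17 of the 18 differences in all.
Saa1: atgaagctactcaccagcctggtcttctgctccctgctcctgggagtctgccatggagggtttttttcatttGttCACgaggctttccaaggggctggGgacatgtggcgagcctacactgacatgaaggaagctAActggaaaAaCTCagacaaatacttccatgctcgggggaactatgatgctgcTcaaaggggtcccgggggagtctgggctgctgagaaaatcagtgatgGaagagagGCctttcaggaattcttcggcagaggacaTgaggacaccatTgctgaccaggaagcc
The capitals leave long stretches with no difference, so the values of Saa1 and Saa2 singly are uncertain; their sum was 0.62 FPKM in Cyp26b1-/- skin and 22.9 FPKM in wild-type skin. Saa3, which shares a run of 58 bases with Saa1, had 0.82 FPKM in Cyp26b1-/- skin and 0.36 FPKM in wild-type skin and did not pass the test (centred interval of its log2 fold -0.80 to 2.22, adjusted p = 0.610, recomputed from the authors' deposited statistic).

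Lcn2 had 5.26 FPKM in Cyp26b1-/- skin and 4.89 FPKM in wild-type skin, with a centred interval of -1.02 to 0.28 (adjusted p = 0.522, recomputed from the authors' deposited statistic). Camp had 1.26 FPKM in Cyp26b1-/- skin and 2.47 FPKM in wild-type skin, with a centred log2 fold of -1.44 (95% interval -2.46 to -0.43). Its fall passed the centred test narrowly (adjusted p = 0.0333) and is not a call in the authors' deposited table (q = 0.0984). Camp and Lcn2 are also granule genes of neutrophils. Of 11 neutrophil and myeloid precursor markers tested, 1 rose and 4 fell (1 higher and 3 lower by the authors' q). The defining granule genes Mpo, Elane and Prtn3 were at 0.16, 0.13 and 0.85 FPKM in Cyp26b1-/- skin. In wild-type skin they were at 0.60, 0.39 and 0.84 FPKM. The marker that rose was the chemokine receptor gene Cxcr2, with 13.8 FPKM in Cyp26b1-/- skin and 3.32 FPKM in wild-type skin. The stefin gene Stfa1, counted as a fall, had 195 and 709 FPKM in that order, but was also high in epidermis (1084 FPKM in the E18.5 control). The part of neutrophils in the Camp value was not tested. Of 8 macrophage and other leukocyte markers tested, 0 rose and 2 fell (4 higher and 1 lower by the authors' q).

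**Figure D1:**
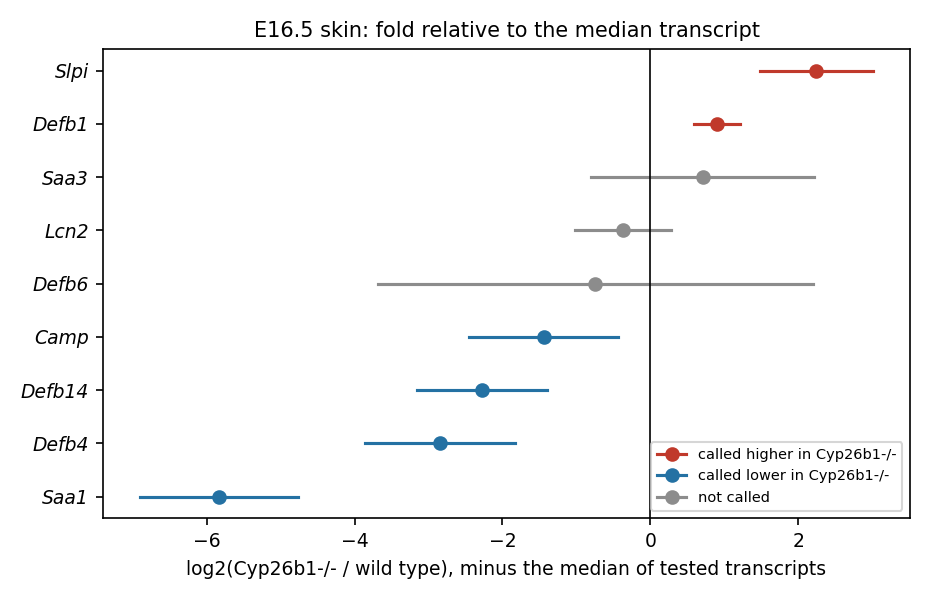
Centred log2 fold (Cyp26b1-/- over wild type, minus the median tested transcript) in E16.5 skin for the 9 genes with a finite fold; points are folds and bars the 95% intervals implied by the deposited statistic, coloured by the call at an adjusted p of 0.05. Slpi and Defb1 lie to the right of 0 and Camp, Defb14, Defb4 and Saa1 to the left, while the bars of Saa3, Lcn2 and Defb6 cross 0.

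Summed over the 10 genes, the level was 104 FPKM in Cyp26b1-/- skin and 87.9 FPKM in wild-type skin, a difference for which no test was made. Defb1 made up 76.9% of the sum in Cyp26b1-/- skin and 35.3% in wild-type skin. In wild-type skin Saa1 and Defb14 came next, at 21.4 and 18.9 FPKM. FPKM are per transcript length, but how well this holds between transcripts of unlike length was not tested. The order and shares of these levels are therefore a description.

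Most granular layer markers tested fell in the same E16.5 libraries as Defb4, Defb14 and Saa1. Of 7 granular keratinocyte markers tested, 0 rose and 5 fell (4 lower by the authors' q), with a median log2 fold of -1.66 on the log2(FPKM + 1) scale against 0 for all genes. Klk7, a protease of corneocyte shedding, had 6.00 FPKM in Cyp26b1-/- skin and 127 FPKM in wild-type skin. Other genes of the list had close to equal levels before centring. Lor had 2434 FPKM in Cyp26b1-/- skin and 2519 FPKM in wild-type skin and was not called. Casp14 had 151 FPKM in both and was a fall only after centring. Of 6 basal keratinocyte markers tested, 0 rose and 1 fell (1 higher and 1 lower by the authors' q), and of 5 fibroblast markers tested, 0 rose and 2 fell (2 higher and 0 lower by the authors' q). The part of the granular layer in the defensin and amyloid values was not tested.

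Other secreted defence proteins were counted from lists. Of 20 other antimicrobial secreted proteins tested, 1 rose and 4 fell (6 higher and 4 lower by the authors' q), with a median log2 fold of -0.23 against 0 for all genes. Il18, an epithelial cytokine, had 4.95 FPKM in Cyp26b1-/- skin and 24.5 FPKM in wild-type skin and fell (adjusted p = 6.59e-21, recomputed from the authors' deposited statistic). Chi3l1, a chitinase-like lectin, had 3.74 FPKM in Cyp26b1-/- skin and 7.39 FPKM in wild-type skin and fell too. Of 7 other whey acidic protein domain genes tested, the family to which Slpi belongs, 0 rose and 0 fell (1 higher and 0 lower by the authors' q; the smallest centred adjusted p was 0.0534, for Wfdc10 with 1.43 FPKM in Cyp26b1-/- skin and 2.81 FPKM in wild-type skin). Of 38 other beta-defensins, 25 were listed at 0 in all 6 group values and 2 reached 1 FPKM in any, the highest being Defb25 at 1.69 FPKM in Cyp26b1-/- skin. Of the 5 of these that were tested 0 rose and 0 fell, and of 3 alpha-defensins tested 0 rose and 0 fell, by the centred call and by the authors' q alike.

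Genes that induce or act with the 10 were counted in the same way. Of 23 inducing cytokines and receptors tested, 2 rose and 8 fell (6 higher and 6 lower by the authors' q), with a median log2 fold of -0.18 against 0 for all genes. The interleukin 36 genes Il1f8 and Il1f9, which drive antimicrobial genes in keratinocytes, had 7.86 and 75.6 FPKM in Cyp26b1-/- skin and 49.2 and 157 FPKM in wild-type skin, and both fell. Il1a, an epidermal alarm cytokine, had 0.28 FPKM in Cyp26b1-/- skin and 2.41 FPKM in wild-type skin and fell (adjusted p = 3.25e-14, recomputed from the authors' deposited statistic). Of 19 transcription factors of inducible antimicrobial genes tested, 3 rose and 5 fell (11 higher and 0 lower by the authors' q, so the 5 falls come from the centring), with a median log2 fold of -0.04 against 0. Among those that rose, Elf3, an epithelial ETS factor, had 26.2 FPKM in Cyp26b1-/- skin and 7.83 FPKM in wild-type skin. The vitamin D receptor gene Vdr, which also rose, had 16.4 FPKM in Cyp26b1-/- skin and 7.08 FPKM in wild-type skin. Of 10 receptors tested, 0 rose and 2 fell (0 higher and 0 lower by the authors' q), including Mc1r, which binds a beta-defensin in dogs. Of 10 proteases and inhibitors tested, 1 rose and 4 fell (3 higher and 3 lower by the authors' q), among them Klk5, which cuts human cathelicidin, with 13.8 FPKM in Cyp26b1-/- skin and 88.0 FPKM in wild-type skin. Liver is the main source of circulating serum amyloid, and of 7 hepatocyte markers tested 1 rose and 1 fell (2 higher and 0 lower by the authors' q), and the defining marker Alb was at 0.63 FPKM in Cyp26b1-/- skin and 1.00 FPKM in wild-type skin. The summed list had 45.2 FPKM in Cyp26b1-/- skin and 37.4 FPKM in wild-type skin, of which the transferrin gene Trf, also at 66.1 FPKM in mutant and 38.3 FPKM in control dermis, was 40.3 and 34.5 FPKM. Of 13 acute-phase genes tested, 0 rose and 1 fell (4 higher and 1 lower by the authors' q), the one that fell being the complement gene C3 with 4.50 FPKM in Cyp26b1-/- skin and 6.62 FPKM in wild-type skin.

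At E18.5 each value is taken as 1 library, as the labels list them, so there is no replicate check and no p-value. A gene was counted as higher or lower when its log2(FPKM + 1) fold, after subtraction of the median gene's, reached 2-fold. The targeted gene could not check the labels, because summed Cyp26b1 levels were higher in the mutant column of each table (58.2 FPKM in Cyp26b1-/- and 35.0 FPKM in wild-type skin), and whole-transcript values do not show a deleted exon. The tissue labels were set against their markers. Both epidermis libraries held some RNA of the fibroblast collagen gene Col1a1 (27.7 FPKM in En1cre;Cyp26b1f/- and 149 FPKM in Cyp26b1f/+). Both dermis libraries held keratinocyte RNA, with Krt5 at 1806 FPKM in En1cre;Cyp26b1f/- and 6265 FPKM in Cyp26b1f/+. The basal keratinocyte markers other than Krt15 went against the tissue labels. Krt5 was lower in epidermis, at 704 FPKM in En1cre;Cyp26b1f/- and 2634 FPKM in Cyp26b1f/+. Krt15 had 725 FPKM in mutant and 1447 FPKM in control dermis, and 815 FPKM in mutant and 1525 FPKM in control epidermis. Summed over the 7 basal markers, the level was 3797 FPKM in mutant and 12396 FPKM in control dermis, and 1873 FPKM in mutant and 5740 FPKM in control epidermis, in tables normalised separately. Granular markers went with the labels, with Klk7 at 4.01 FPKM in mutant and 15.7 FPKM in control dermis, and 1023 FPKM in mutant and 811 FPKM in control epidermis. Fewer cells of a type and less RNA per cell cannot be told apart in such samples. Col1a1, Col1a2 and Col3a1 had failed estimates in the E16.5 and dermis tables and are not used there.

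In E18.5 epidermis, 3 of the 10 genes reached 1 FPKM in either library, and 1 of these, Defb14, was at least 2-fold lower in the mutant, where 4.86% of 11362 genes were lower and 3.49% higher; 0 of the 10 were higher. Defb14 had 1.53 FPKM in En1cre;Cyp26b1f/- epidermis and 9.48 FPKM in Cyp26b1f/+ epidermis, a log2 fold of -1.87 relative to the median gene, and 95 of 11362 genes had a lower fold. The E16.5 and E18.5 tables share no libraries, and the log2 folds of Defb14 on this scale were -1.87 in E18.5 epidermis and -2.06 in E16.5 skin. Defb4, which fell beside it at E16.5, was listed at 0 in both E18.5 epidermis libraries. Defb1 had 5.88 FPKM in En1cre;Cyp26b1f/- epidermis and 8.79 FPKM in Cyp26b1f/+ epidermis (log2 fold -0.33), the opposite sign to E16.5 skin; the difference was not tested. Saa1 had 2.0 FPKM in En1cre;Cyp26b1f/- epidermis and 2.75 FPKM in Cyp26b1f/+ epidermis (log2 fold -0.14). Slpi had 0.51 FPKM in En1cre;Cyp26b1f/- epidermis and 0.10 FPKM in Cyp26b1f/+ epidermis, below the 1 FPKM minimum in both.

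Granular markers were not lower in the epidermis library in which Defb14 was lower. Of 5 granular keratinocyte markers with at least 1 FPKM, 5 lay above the median gene and 0 below it, with a median log2 fold of 0.69, and Klk7 had 1023 FPKM in En1cre;Cyp26b1f/- epidermis and 811 FPKM in Cyp26b1f/+ epidermis. Another 2 genes of this list, among them Lor, had failed estimates in epidermis and are not counted. Basal keratinocyte markers were lower, with 5 of 7 at least 2-fold lower and a median of -1.17. Fibroblast markers were lower as well, with 6 of 6 at least 2-fold lower. Their part in the Defb14 value was not tested. Of the other antimicrobial secreted proteins, 4 were at least 2-fold higher and 1 lower of 10, including the peptidoglycan recognition protein Pglyrp3 with 5.95 FPKM in En1cre;Cyp26b1f/- epidermis and 2.37 FPKM in Cyp26b1f/+ epidermis. Wfdc5, another whey acidic protein gene, had 91.4 FPKM in En1cre;Cyp26b1f/- epidermis and 51.6 FPKM in Cyp26b1f/+ epidermis, just short of the 2-fold limit at a log2 fold of 0.99.

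**Figure D2:**
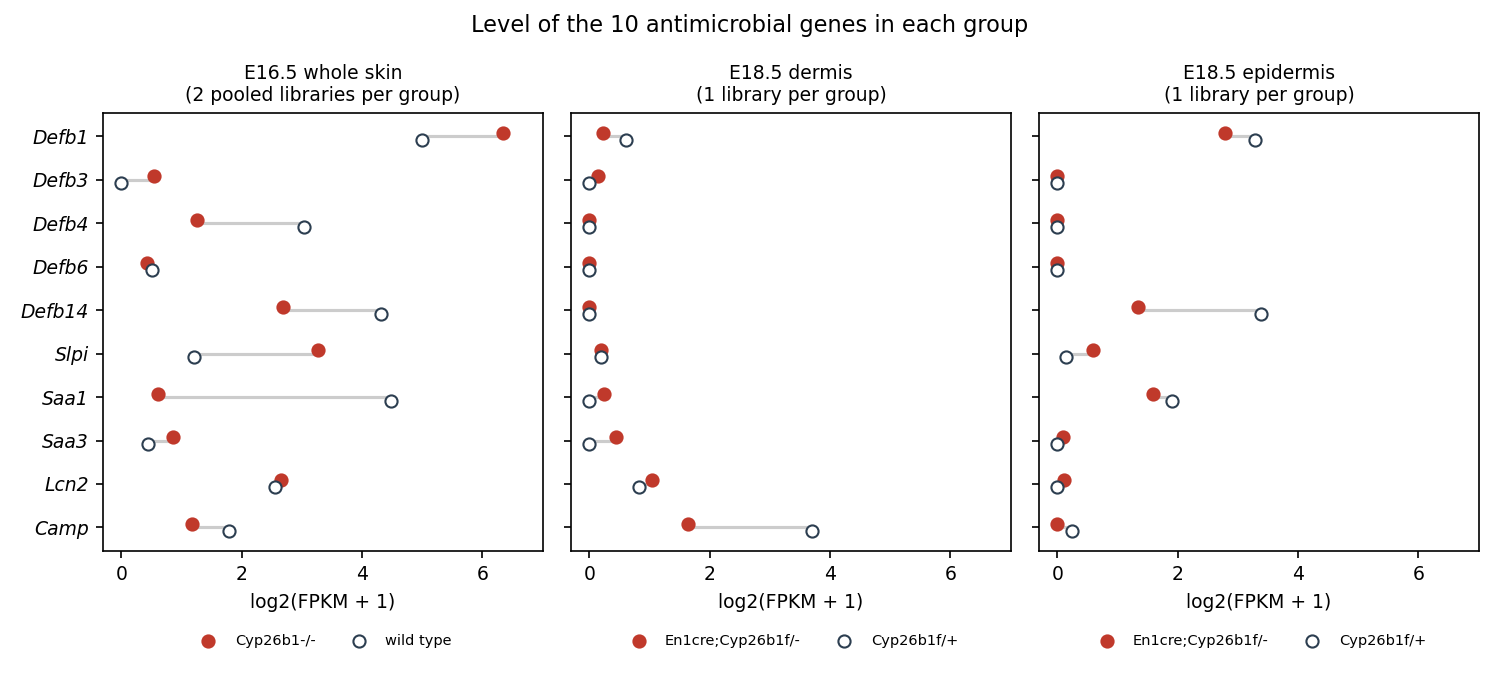
Level of each gene as log2(FPKM + 1) in E16.5 skin, E18.5 dermis and E18.5 epidermis; filled points are mutant and open points control group values (2 pooled libraries each at E16.5, 1 library each at E18.5). Defb14 lies lower in the mutant in both skin and epidermis, Saa1 shows the widest gap in skin, and Camp is the 1 gene with a wide gap in dermis.

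In E18.5 dermis, Camp and Lcn2 were the 2 genes that reached 1 FPKM. Camp was at least 2-fold lower in the mutant, where 13.9% of 13398 genes were lower and 14.0% higher, and 0 of the 10 genes were higher. Camp had 2.10 FPKM in En1cre;Cyp26b1f/- dermis and 12.1 FPKM in Cyp26b1f/+ dermis, a log2 fold of -2.20 relative to the median gene, and 210 of 13398 genes had a lower fold. With 12.1 FPKM, control dermis was the group with the highest Camp value of the 6. Lcn2 had 1.06 FPKM in En1cre;Cyp26b1f/- dermis and 0.78 FPKM in Cyp26b1f/+ dermis. Defb4, Defb6 and Defb14 were listed at 0 in both dermis libraries, and Defb1, Defb3, Slpi, Saa1 and Saa3 were at 0.52 FPKM or less.

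Mature adipocyte markers were lower in the same mutant dermis library as Camp. Of 9 adipocyte genes with at least 1 FPKM (a list written after these values had been seen), 6 were at least 2-fold lower and 2 higher, with a median log2 fold of -3.51 against 0 for all genes. The adipokine genes Cfd and Adipoq had 0.66 and 3.50 FPKM in En1cre;Cyp26b1f/- dermis and 61.9 and 59.5 FPKM in Cyp26b1f/+ dermis. The lipid droplet gene Plin1 had 5.28 FPKM in En1cre;Cyp26b1f/- dermis and 95.7 FPKM in Cyp26b1f/+ dermis. Fabp4, a fatty acid carrier of adipocytes and endothelium, was higher in the mutant, with 317 FPKM in En1cre;Cyp26b1f/- dermis and 73.2 FPKM in Cyp26b1f/+ dermis, as did Pparg, the adipogenic nuclear receptor, with 12.3 and 4.22 FPKM in that order. Acute-phase genes were mixed in dermis, with 2 at least 2-fold higher and 3 lower of 9 with at least 1 FPKM. Hp and C3, both also made by adipocytes, had 2.41 and 2.41 FPKM in En1cre;Cyp26b1f/- dermis and 42.1 and 12.1 FPKM in Cyp26b1f/+ dermis. Cfb and Ptx3 went the other way, with 5.06 and 9.06 FPKM in En1cre;Cyp26b1f/- dermis and 0.95 and 2.80 FPKM in Cyp26b1f/+ dermis. In E16.5 skin, 0 of 10 adipocyte genes tested rose and 6 fell (0 higher and 1 lower by the authors' q). Adipoq had 38.8 FPKM in Cyp26b1-/- skin and 47.3 FPKM in wild-type skin, where Camp had 1.26 and 2.47 FPKM. The part of adipocytes in the Camp values was not tested.

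Neutrophil markers were mixed in the dermis libraries. Mpo and Elane were at 0.05 and 0.07 FPKM in En1cre;Cyp26b1f/- dermis and 0.12 and 0.13 FPKM in Cyp26b1f/+ dermis, and the granule gene Ngp was at 0.42 FPKM in En1cre;Cyp26b1f/- dermis and 0.05 FPKM in Cyp26b1f/+ dermis. Of 5 neutrophil and myeloid precursor markers with at least 1 FPKM, 1 was at least 2-fold higher and 1 lower. The higher one was the chemokine receptor gene Cxcr2, with 6.33 FPKM in En1cre;Cyp26b1f/- dermis and 0.58 FPKM in Cyp26b1f/+ dermis, and the lower one was the stefin gene Stfa1. In epidermis Stfa1 had 190 FPKM in En1cre;Cyp26b1f/- and 1084 FPKM in Cyp26b1f/+, so it is not a marker of neutrophils alone in these libraries. Of the other granule protease genes, Prtn3 had 0.68 FPKM in En1cre;Cyp26b1f/- dermis and 1.93 FPKM in Cyp26b1f/+ dermis, and Ctsg had 4.75 and 2.61 FPKM in that order. Summed over the marker list the level was 23.9 FPKM in En1cre;Cyp26b1f/- dermis and 35.9 FPKM in Cyp26b1f/+ dermis, of which Stfa1 was 9.37 and 29.9 FPKM. Keratinocyte markers were lower in the mutant dermis, with 6 of 7 basal and 5 of 7 granular markers at least 2-fold lower. Fibroblast markers lay higher, with 2 of 5 at least 2-fold higher, 0 lower and a median log2 fold of 0.95, and the matrix gene Dpt had 414 FPKM in En1cre;Cyp26b1f/- dermis and 48.6 FPKM in Cyp26b1f/+ dermis. The part of neutrophils, keratinocytes and fibroblasts in the Camp value was not tested.

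**Figure D3:**
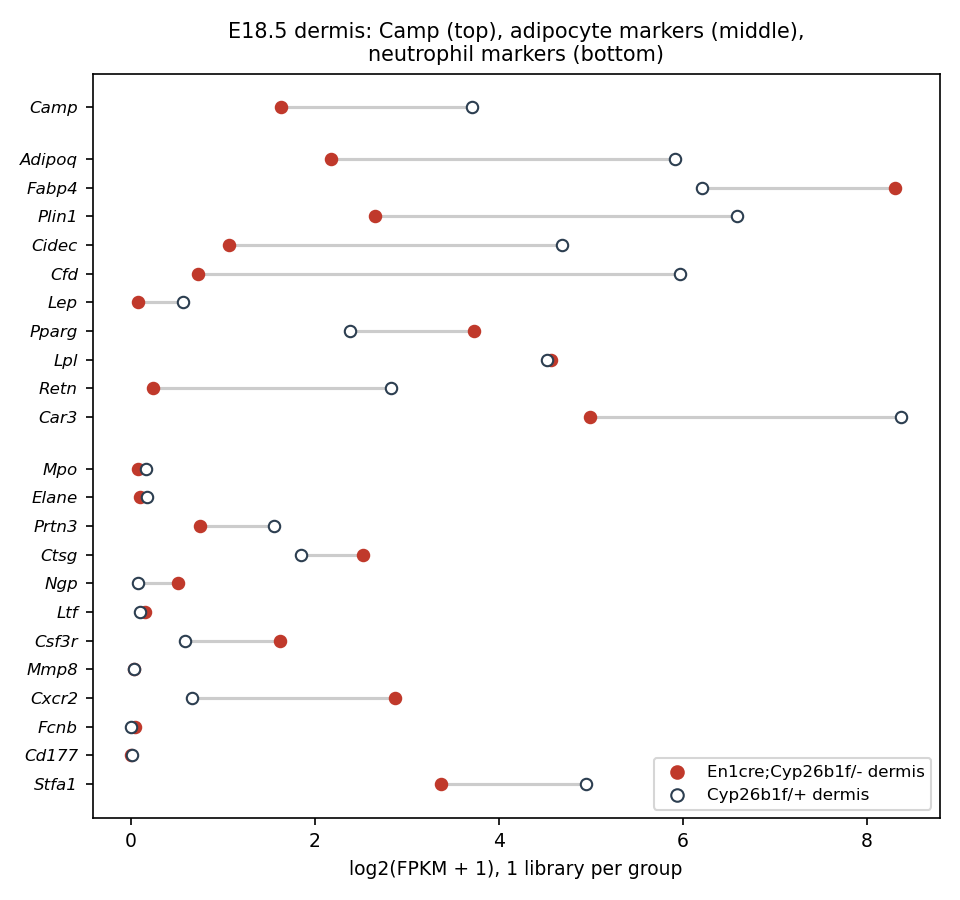
Levels in E18.5 dermis as log2(FPKM + 1), 1 library per group, of Camp (top row), adipocyte markers (middle block) and neutrophil markers (bottom block); filled points are En1cre;Cyp26b1f/- and open points Cyp26b1f/+ dermis. Camp, at 2.10 FPKM in En1cre;Cyp26b1f/- and 12.1 FPKM in Cyp26b1f/+, leans the same way as Adipoq, Plin1, Cidec, Cfd, Retn and Car3, while Fabp4 and Pparg lean the other way and Mpo, Elane and Ltf lie close to 0 in both.

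Other antimicrobial secreted proteins lay mostly higher in the mutant dermis, with 4 at least 2-fold higher and 0 lower of 11. Lyz2, the macrophage lysozyme, had 43.3 FPKM in En1cre;Cyp26b1f/- dermis and 6.12 FPKM in Cyp26b1f/+ dermis. Macrophage markers were higher in the same library, with 4 of 7 at least 2-fold higher, among them Cd68 with 47.9 FPKM in En1cre;Cyp26b1f/- dermis and 10.2 FPKM in Cyp26b1f/+ dermis; their part was not tested. Of the transcription factors of inducible antimicrobial genes, 0 were at least 2-fold higher and 7 lower of 19, with a median log2 fold of -0.70, including Cebpb with 20.7 FPKM in En1cre;Cyp26b1f/- dermis and 70.7 FPKM in Cyp26b1f/+ dermis.

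Across the 6 group values, which come from tables normalised separately, most of the 10 genes were highest in E16.5 skin. Defb1 was highest in skin (80.2 FPKM in Cyp26b1-/- and 31.0 FPKM in wild-type), lower in epidermis (5.88 FPKM in mutant and 8.79 FPKM in control) and lowest in dermis (0.17 FPKM in mutant and 0.52 FPKM in control). Defb14 was highest in wild-type skin (18.9 FPKM), followed by control epidermis (9.48 FPKM) and Cyp26b1-/- skin (5.40 FPKM). With no spread between libraries, it cannot be said which neighbours in these orders differ. The symbols nearest in pattern were sought among 12072 with at least 5 FPKM in any group value, by the root mean square difference of mean-centred log2(FPKM + 1) over the 6 values. For Slpi the nearest was Pax6, a transcription factor of the eye, at 0.14 log2 units, with 6.82 FPKM in Cyp26b1-/- skin and 0.77 FPKM in wild-type skin. For Defb1 it was the mucin Muc15 at 0.27 log2 units, with 98.2 FPKM in Cyp26b1-/- skin and 29.1 FPKM in wild-type skin. For Camp it was the Wnt target Sp5 at 0.20 log2 units, with 2.49 FPKM in En1cre;Cyp26b1f/- dermis and 14.7 FPKM in Cyp26b1f/+ dermis. For Lcn2, Defb4, Defb14 and Saa1 they were Ncoa7, Mir467f, Nt5c3 and Hephl1, at 0.11, 0.13, 0.55 and 0.60 log2 units.

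Promoter windows from RefSeq (GRCm38.p6, not the mm9 build of the tables; 250 bases before to 50 after the start) were held for 7 of the 10 genes, not for Defb1, Defb4 and Defb14. The windows of Saa1, Slpi and Camp are shown because these had the largest fall, the largest rise and the lower dermis value. Capitals mark matches on either strand to 1 of 6 motifs: AGGTCA (a nuclear receptor half-site), an NF-kB motif (GGGA and CC with any 4 bases between), TTGCNNAA (C/EBP), TTCNNNGAA (STAT), TGANTCA (AP-1) and TATAAA.
Saa1 at chr7:46742931-46743230, minus strand: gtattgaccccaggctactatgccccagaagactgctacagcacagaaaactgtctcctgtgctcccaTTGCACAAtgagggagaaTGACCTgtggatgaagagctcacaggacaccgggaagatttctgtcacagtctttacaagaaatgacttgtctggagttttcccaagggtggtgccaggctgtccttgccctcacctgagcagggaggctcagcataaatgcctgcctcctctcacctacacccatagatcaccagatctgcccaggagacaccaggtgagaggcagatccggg
Slpi at chr2:164356458-164356757, minus strand: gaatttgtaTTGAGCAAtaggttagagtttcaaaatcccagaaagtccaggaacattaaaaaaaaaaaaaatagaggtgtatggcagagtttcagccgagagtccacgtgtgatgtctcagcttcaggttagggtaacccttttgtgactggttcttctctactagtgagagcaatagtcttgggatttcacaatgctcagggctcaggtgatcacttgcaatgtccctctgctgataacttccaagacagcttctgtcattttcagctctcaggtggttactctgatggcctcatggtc
Camp at chr9:109849407-109849706, minus strand: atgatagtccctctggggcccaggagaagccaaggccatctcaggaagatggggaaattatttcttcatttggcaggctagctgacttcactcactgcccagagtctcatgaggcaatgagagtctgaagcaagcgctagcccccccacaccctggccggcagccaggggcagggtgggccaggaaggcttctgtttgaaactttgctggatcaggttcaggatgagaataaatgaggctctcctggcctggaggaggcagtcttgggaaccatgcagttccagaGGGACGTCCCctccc
The Saa1 window holds TTGCACAA and TGACCT, the Slpi window TTGAGCAA and the Camp window GGGACGTCCC. The Camp match lies 35 to 44 bases after the start, and those of Saa1 and Slpi lie before it. Matches to TTGCNNAA were found in 6 of the 7 windows (those of Defb3, Defb6, Slpi, Saa1, Saa3 and Lcn2), where 10.8% of 32851 windows hold one; Defb3 and Defb6, and Saa1 and Saa3, are related sequences. The half-site AGGTCA was found in 1 of the 7, that of Saa1, where 16.3% of all windows hold it, and the NF-kB motif in 1 of the 7, that of Camp, where 20.7% do. A match is a stretch of letters and no evidence of binding.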

How the data were processed

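Per the labels' protocols, Trizol was used for RNA and a TruSeq kit for the libraries. The submitters' processing notes name the build mm9 and the tools Cuffdiff 1.3.0, Cufflinks, TopHat 1.3.2 and Bowtie 0.12.7.0, without their settings. Whether strand was used is not given in the sources used here. Per the file headers, each transcript has FPKM (2 decimals), a log2 fold of mutant over control, a signed fold (not used), a test statistic (a score whose sign is opposite to the fold), a status, and a p-value with its q-value. The FPKM deposited by the authors pool 2 libraries per group at E16.5 and are taken as 1 library per column at E18.5, as the labels list them. These values carry no read depth, and low values showed no usable step of 1 read.

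FPKM were summed per symbol, and rows with a failed status were left out. Log2 folds use a pseudocount of 1, which understates low genes, for genes reaching 1 FPKM in a comparison, minus the median gene (0.43 at E16.5, 0.12 in dermis, -0.18 in epidermis). For E16.5 the SE is the deposited log2 fold divided by the statistic, the deposited statistic was recomputed after subtracting the median fold, and the two-sided normal p was adjusted by Benjamini-Hochberg; it describes Cuffdiff's model and these libraries, not animals. The deposited p-value differed from that of the statistic by at most 0.00401. The centring was tested on simulated data in which every transcript was given the same shift. That setting cannot show whether centring is right for the shift in the real data. Of the authors' calls 92.8% were higher; after centring, which itself balances the directions, 45.9% were. For E18.5 no p-value was computed. Locus starts count from 0, so 1 was added. Levels set across tables are descriptions, since each table was normalised separately. The 10 genes, 10 gene lists and 9 marker lists were chosen with earlier results of these data known, and 1 list (adipocyte) was written after its values were seen. Named were the 10 genes, up to 3 genes of each list with the largest absolute fold in a comparison (at least 1 FPKM, no failed row), defining markers by list order, and the symbol nearest in pattern to each gene. The adipocyte genes, and Ngp, Ctsg and Ltf in dermis, were named after their values were seen. The scripts used Python 3.11.15, numpy 2.4.6, pandas 2.3.3, scipy 1.17.1 and matplotlib 3.10.9.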

Additional observations from a re-analysis of the deposited data

How the results depend on the processing

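The E18.5 counts were only 0 or 1, so their recounts had little room to move. Of 30 recounts of the 10 genes under other settings, 29 stayed within 1.5 times the reported count. The exception was the count of genes higher in E16.5 Cyp26b1-/- skin, which was 1 (Slpi) by a 2-fold difference with no test, in place of 2, since Defb1 lay just under 2-fold relative to the median gene. The genes lower there were 4 under the reported setting, 4 with the median taken over transcripts of at least 5 FPKM, 4 with it over those of at least 1 FPKM (a setting chosen after seeing the data), and 3 by the authors' q and at an adjusted p of 0.01, where Camp was not called. Of 48 single folds recomputed with a pseudocount of 0.1 or 5, with no filter on low values or without centring, 46 kept their direction and 2 did not, both of Lcn2, which was not called. Its log2 fold was 0.088 without centring at E16.5, against -0.34 as reported, and -0.0056 with a pseudocount of 5 in dermis, against 0.088 as reported. A change of pseudocount cannot turn the direction of a fold before centring, so those recounts say little about direction. Camp at E16.5 kept its direction without centring but lost its call. The cause was not tested. No paired analysis was possible because every E16.5 column is a pooled group value and the E18.5 groups have 1 library each; for the same reason no replicate could be left out. Genes under 1 FPKM (Defb3, Defb6 and Saa3 at E16.5) were below what these tables resolve.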
